A study of Mus musculus with 54 samples.

Results

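Oxidative phosphorylation was described here through its subunit genes, grouped by the 5 complexes of the inner mitochondrial membrane. A row was taken when its symbol began with the stem of a complex I (Nduf), II (Sdh), III (Uqcr, Cyc1), IV (Cox4 to Cox8) or V (Atp5) gene, or with mt-, which gave 104 of the 20162 rows of the table. The mt- rows held only the 2 mitochondrial ribosomal RNAs, so the 13 subunits encoded by mitochondrial DNA (mtDNA), which the table lists under RefSeq names such as ND1, CYTB, COX1 and ATP6, were added, for 117 rows in all. Of these, 88 were nuclear subunit genes, 13 were mtDNA-encoded, 14 were pseudogenes or near copies and 2 were ribosomal RNAs, and 108 reached the mean value of 1 needed for a test. The 101 subunit genes comprised 46 of complex I, 4 of complex II, 10 of complex III, 21 of complex IV and 20 of complex V, and 98 of them were tested. Ndufs6b, Cox4i2 and Cox8b were too low.

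The libraries came from the livers of 54 wild-type C57BL/6J male mice, each housed alone and fed a high-fat diet from 8 weeks of age. Di-isononyl phthalate (DINP), a plasticizer, was eaten daily in a gelatin pellet for 20 weeks at 1.5 mg/kg bw/d (13 mice, DINP 1.5), 15 mg/kg bw/d (13 mice, DINP 15) or 150 mg/kg bw/d (14 mice, DINP 150), and 14 control mice ate the pellet without it. All groups shared the diet, the sex and the strain, so no comparison with a standard diet or with females was possible. RNA of the medial liver lobe was read from transcript 3′ ends. All values below, called scaled TPM here, behaved as TPM (transcript abundance per length and library) divided by a size factor per mouse. This division was inferred from the values. TPM divides by transcript length although a 3′ library gives about 1 read position per transcript, so levels of different genes are compared only as scaled TPM, per length.

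In the respiratory chain, complex I (NADH dehydrogenase) and complex II (succinate dehydrogenase) pass electrons to ubiquinone, complex III (cytochrome bc1) passes them to cytochrome c, and complex IV (cytochrome c oxidase) passes them to oxygen. Complexes I, III and IV pump protons, and complex V (ATP synthase) lets them flow back through its membrane part to drive ATP synthesis in its F1 head. Most subunits are nuclear-encoded and imported, while the hydrophobic cores of complexes I, III, IV and V come from mtDNA. Hepatocytes are rich in mitochondria and oxidize fatty acids, whose electrons enter the chain at complex I and, through the electron transfer flavoprotein, at ubiquinone.

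Promoters were compared first, since many nuclear subunit genes moved together across mice. RefSeq start sites on GRCm38.p6 were found for 69 of the 88 nuclear subunit genes, and among those with no entry were Atp5f1a, Atp5mj, Atp5mk, Cox4i1, Cox4i2, Cox6a2, Cox6c, Cyc1, Ndufa2, Ndufa4l2, Ndufb4c, Ndufb9, Ndufs1, Ndufs6b, Sdhc, Uqcrb, Uqcrc2 and Uqcrq. The 250 bases before the start were searched on both strands. The core GCGCANGC of nuclear respiratory factor 1 (NRF1; GCNTGCGC on the other strand), a factor known for respiratory genes, was present in 19 of 69 (27.5%) against 9.38% of all 27025 genes in the promoter set. The ETS core CCGGAAG, with CTTCCGG on the other strand, bound by GABPA among others, was present in 12 (17.4%) against 7.83%, and the nuclear receptor motif AAGGTCA, with TGACCTT on the other strand, in 6 (8.70%) against 4.70%. The YY1 core AAGATGG, with CCATCTT on the other strand, was present in 1 gene, Atp5pf (1.45%, against 5.18%). None of these motifs contains another. At least 1 of the 4 was held by 29 of 69 (42.0%) against 23.9% of all genes, and by 14 of the 29 (48.3%) with an entry among the nuclear genes that rose in DINP 15. A match describes letters only. Of the genes that rose in DINP 15 both in all mice and without 4 mice that stand apart (defined after the sequences), 8 had an entry. At least 1 motif was held by 3 of these 8 (37.5%). The 150 bases before the start are shown for 4 of the 8, with motif letters in capitals. Within those bases, only Atp5pd and Ndufs3 of the 8 hold a motif. Atp5pd holds an NRF1 core 134 to 141 bases and an ETS core 32 to 38 bases before the start, Ndufs3 holds an ETS core 21 to 27 bases before it, and the windows of Atp5pf and Cox7b hold none of the 4.
Atp5pd, chr11:115419920-115420069, minus strand: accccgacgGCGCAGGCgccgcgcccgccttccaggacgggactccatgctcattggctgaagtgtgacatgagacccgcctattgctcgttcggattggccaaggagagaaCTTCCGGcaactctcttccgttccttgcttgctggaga
Ndufs3, chr2:90904722-90904871, minus strand: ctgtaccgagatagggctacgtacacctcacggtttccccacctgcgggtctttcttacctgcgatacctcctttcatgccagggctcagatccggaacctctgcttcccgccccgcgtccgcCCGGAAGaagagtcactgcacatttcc
Atp5pf, chr16:84835626-84835775, minus strand: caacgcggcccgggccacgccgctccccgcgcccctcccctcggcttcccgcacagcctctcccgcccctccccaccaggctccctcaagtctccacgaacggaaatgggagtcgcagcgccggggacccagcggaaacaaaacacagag
Cox7b, chrX:106015550-106015699, plus strand: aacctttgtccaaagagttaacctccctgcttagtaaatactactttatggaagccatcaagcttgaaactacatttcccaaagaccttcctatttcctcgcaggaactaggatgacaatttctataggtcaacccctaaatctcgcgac

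Each mouse's values were whole multiples of a step of 0.764 to 1.11, whole sums ran from 948342 to 980641, and read depth is unknown. Mice of the same group resembled each other (r from 0.893 to 0.970 over 338 pairs, across genes), but 4 of the 13 mice of the DINP 15 group stood apart. They were found with a length index, the mean log2 deviation of other protein-coding genes with transcripts under 1000 bases (1839 genes) minus that of genes over 3000 bases (2893 genes). Mice 5, 6, 7 and 8 of that group had indices of 0.206, 0.202, 0.170 and 0.203, over 3 scaled median absolute deviations (0.0552 each) from the median of -0.0070, and no mouse of another group did. The next highest were control mouse 1 (0.137) and mouse 9 of the DINP 15 group (0.0988). Nuclear subunit genes have short transcripts, with a median of 651 bases and 77.6% under 1000 bases against 2052 bases and 19.8% for other protein-coding genes tested. The main results in DINP 15 are therefore given with and without these 4 mice. Where only 1 value or count is given for DINP 15, it is for all 13 mice. What set them apart was not tested. Hepatocyte markers (9 of 10 listed genes present, summed scaled TPM 23961 to 46533) were high in every mouse. Of these, 1 rose and 1 fell in DINP 15, and none passed by limma at the other doses. In mice 5 to 8 they summed to 42779, 38837, 29849 and 46533. The other 50 mice had a median of 37147 and a highest value of 44283. Summed striated muscle markers (6 genes) had a median of 0 in control mice and in the DINP 15 group, with highest values of 88.7 and 301, and were at most 2.09 in the other two groups. White adipocyte markers summed to at most 5.22 in any mouse. Of the tested markers of Kupffer, endothelial, stellate, cholangiocyte, lymphocyte, neutrophil, brown adipocyte, muscle and red blood cells, 1 endothelial marker fell in DINP 15 and no other passed in a comparison with control by limma. Some marker sums were high, and others low, in the 4 mice that stand apart. Cholangiocyte markers summed to 68.2, 34.0, 254 and 31.0 in mice 5 to 8, against a median of 19.4 in the other 50 mice, of which 12 reached 31.0 or more and the highest 153. Mouse 7 also had the highest stellate and neutrophil sums of all mice, 372 and 38.1, against highest values of 343 and 22.9 elsewhere. Endothelial markers summed to 137, 107, 110 and 98.4 in mice 5 to 8, against a median of 137 in the other 50 mice. The lowest endothelial sums were 114 in control mice, 125 in DINP 1.5 and 112 in DINP 150. White adipocyte markers summed to 0 in all 4 mice, and their median in the other 50 mice was 0 too. The part of these cells in the results for DINP 15 was not tested. In bulk liver, fewer cells of a type and less RNA per cell cannot be told apart.

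In control livers the mtDNA-encoded genes dominated the scaled TPM. The 13 mtDNA-encoded subunits held 19.9% ± 1.70 (SD, n = 14) of the summed values, the 2 ribosomal RNAs 12.5% ± 1.19, and the 85 nuclear subunit genes tested 3.95% ± 0.408. ND2, a proton-pumping subunit of complex I, was highest with a median of 72138, followed by ATP6, the proton channel subunit a of complex V (34028), ND4 of complex I (19906), CYTB of complex III (14975), ATP8 of complex V (14554) and COX3 of complex IV (11221). COX1, the catalytic subunit of complex IV, had a median of 2738, and ND6, on the other mtDNA strand, one of 42.8. ATP8 with ATP6 and ND4L with ND4 lie on shared transcripts and overlap, and whether reads were counted by strand is not given in the sources used here, so the split within these pairs and the level of ND6 are uncertain. Medians of neighbours in this order differed by less than the spread between mice for CYTB (8667 to 21661) and ATP8 (8905 to 17837).

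Among nuclear genes the highest control medians were Atp5mc3, a gene for the c ring of ATP synthase (3367), Uqcrq of complex III (2391), Cox6a1 (1724), Cox8a (1663) and Cox4i1 (1466) of complex IV, and Atp5f1b, the catalytic beta subunit of F1 (1170). Complex II genes had medians of 243 for the iron-sulphur subunit Sdhb, 182 for the flavoprotein Sdha, 62.8 for Sdhc and 10.2 for Sdhd, the membrane anchors. The core subunits of complex I spanned 42.8 for Ndufs1 to 380 for Ndufv1, which carries the NADH site.

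Isoform pairs showed the liver forms. Cox4i1 lay between 544 and 1652 in control mice, while Cox4i2, the hypoxia-associated form, was at 0 in 13 of 14. The ubiquitous Cox6a1 averaged 1695 ± 210 (SD, n = 14), against 1.64 for Cox6a2, the form of heart and skeletal muscle. Cox8a averaged 1657 and the muscle form Cox8b 0.0728. Cox7a2 averaged 979, its relative Cox7a2l (a supercomplex factor) 129, and Cox7a1, another muscle form, 13.2. Ndufa4, a complex IV subunit despite its name, averaged 672 and its paralog Ndufa4l2 2.39. Of the 3 genes for the identical mature subunit c, Atp5mc3 averaged 3332, Atp5mc1 262 and Atp5mc2 60.9. Cox6a2 reached 11.2 in 1 control mouse and 54.5 in 1 mouse of the DINP 15 group, the mice of these groups whose striated muscle markers were highest.

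The number of subunit genes that changed against control differed between doses, and all 3 comparisons share the 14 control mice. In DINP 1.5, 1 of 98 subunit genes rose and 3 fell, beside 0.674% and 0.525% of all 11431 rows tested. In DINP 15, 38 rose and 3 fell (38.8% and 3.06%), beside 7.57% and 6.61% of all rows, and without the 4 mice that stand apart 10 rose and 1 fell (10.2% and 1.02%), beside 3.59% and 2.81%. In DINP 150, 3 rose and none fell by limma, beside 1.49% and 0.682%. All groups share 1 fit, so leaving out the 4 mice also changed the counts at the other doses. It gave 2 up and 9 down in DINP 1.5, beside 143 and 113 of all 11431 rows. In DINP 150 it gave 6 up and 2 down, beside 237 and 144 of all rows. The median log2 fold change of the subunit genes was -0.13, 0.21 (0.078 without the 4 mice) and 0.015 in dose order, against 0.0028, -0.0010 and -0.0081 over all rows tested. By the stricter rule that also asks for a log2 fold change beyond 0.5, 10 subunit genes passed in DINP 15 with all mice (3.72% of all rows did) and none in DINP 150 (0.84% did).

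**Figure D1:**
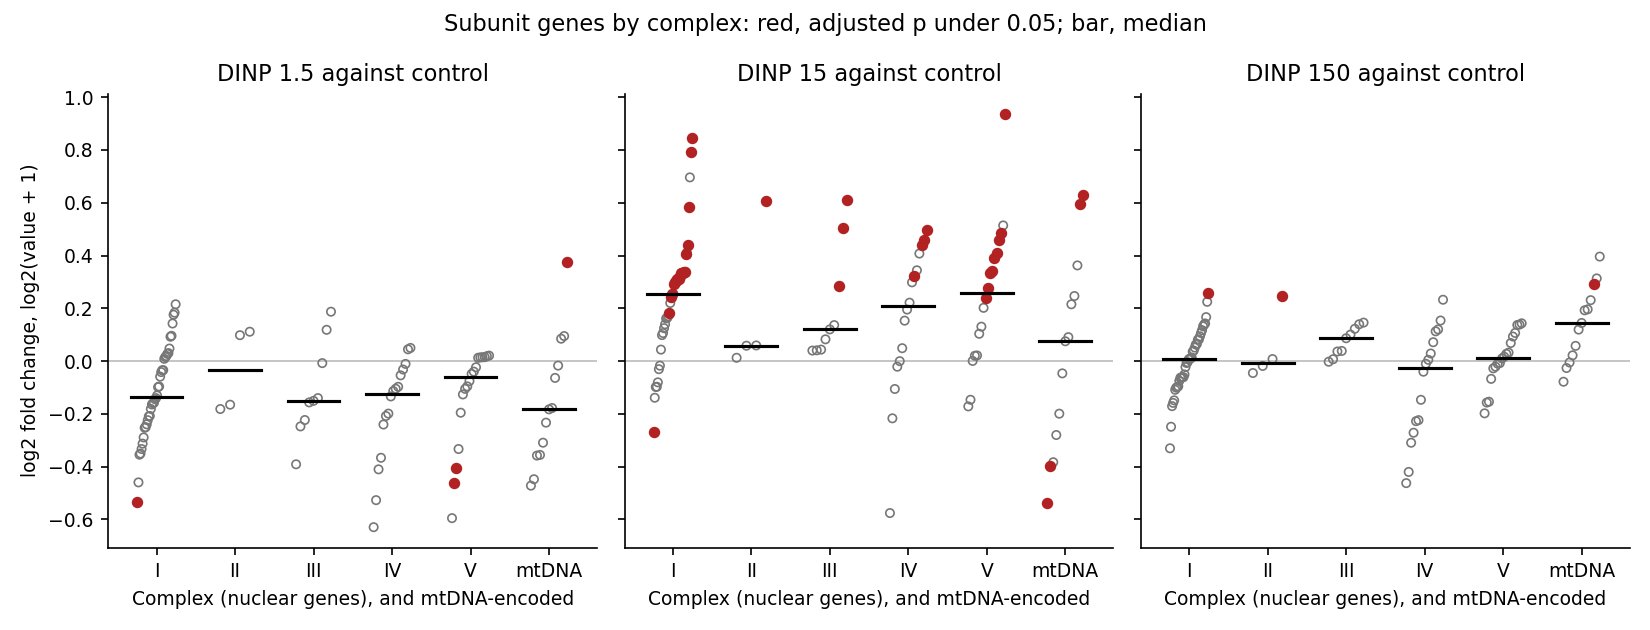
Log2 fold change against control on the log2(scaled TPM + 1) scale for each of 98 subunit genes, by complex for nuclear genes and together for the 13 mtDNA-encoded genes, in DINP 1.5, DINP 15 and DINP 150. Filled red points had an adjusted p under 0.05 and black bars are medians. In DINP 15, 36 nuclear genes are red above 0, while in DINP 150, 2 are.

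Averaged over the 85 nuclear genes tested, a mouse's log2 difference from the control mean was 0 ± 0.169 (SD, n = 14, from -0.25 to 0.41) in control mice, -0.13 ± 0.0928 (n = 13, from -0.33 to 0.030) in DINP 1.5, 0.22 ± 0.294 (n = 13, from -0.12 to 0.68) in DINP 15 and -0.0051 ± 0.134 (n = 14, from -0.14 to 0.40) in DINP 150. The groups overlapped, and the spread was widest in DINP 15, where mice 5, 6, 7 and 8 stood at 0.68, 0.60, 0.31 and 0.55 and mouse 9 at 0.47. Over the 13 mtDNA-encoded genes the means were 0 ± 0.226, -0.16 ± 0.128, 0.028 ± 0.174 and 0.14 ± 0.0920 in the same order. All 14 mice in DINP 150 lay above the control mean, between 0.035 and 0.32, while control mice ran from -0.60 to 0.30. The summed values of a mouse were also higher in DINP 150, with a mean of 998538 against 937882 in control mice. As a share of each mouse's sum, the mtDNA-encoded subunits held 20.7% ± 1.42 (SD, n = 14) in DINP 150 against 19.9% in control mice, and 4 of the 14 mice lay below the control mean.

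In complex I 19 of 38 nuclear genes tested rose and 1 fell in DINP 15, with a median log2 fold change of 0.25, and without the 4 mice 4 rose and 1 fell, with a median of 0.12. Among the core subunits, which carry the flavin and iron-sulphur clusters, Ndufs3 and Ndufv2 rose with and without the 4 mice. Ndufs7 and Ndufs8 rose only with all mice, Ndufv1 fell and Ndufs1 did not pass (-0.10 ± 0.08 SE, adjusted p = 0.465).

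Ndufs4, an accessory subunit of the matrix arm (chr13:114287795-114388258, minus strand, GRCm38), had the lowest adjusted p of the complex I genes in DINP 15. Its scaled TPM had a lowest, median and highest value of 107, 123 and 140 in control mice, 117, 140 and 158 in DINP 1.5, 135, 162 and 233 in DINP 15, and 129, 146 and 187 in DINP 150. In DINP 15, 12 of 13 mice lay above the highest control mouse, and in DINP 150, 10 of 14 did. The log2 fold change was 0.41 ± 0.06 (SE, adjusted p = 5.41e-06) in DINP 15 and 0.33 (adjusted p = 0.000273) without the 4 mice, 0.26 ± 0.06 (adjusted p = 0.00759) in DINP 150, and 0.18 ± 0.06 (adjusted p = 0.159, not called) in DINP 1.5. Over the 15 alternative analyses the adjusted p ran from 3.57e-06 to 0.0123 in DINP 15.

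Ndufv2, a core subunit with an iron-sulphur cluster, ran from 47.4 to 83.1 (median 62.9) in control mice and from 67.4 to 106 (median 77.3) in DINP 15. Its log2 fold change was 0.34 ± 0.06 (adjusted p = 0.000263), and 0.26 (adjusted p = 0.00693) without the 4 mice, which held 3 of the 5 values above the highest control. Ndufs3, another core subunit of the matrix arm, ran from 138 to 224 in control mice and from 157 to 272 in DINP 15, with a log2 fold change of 0.30 ± 0.08 (adjusted p = 0.00883) and of 0.30 (adjusted p = 0.0224) without the 4 mice. The groups overlapped for both genes. Alternatives gave an adjusted p of 0.000167 to 0.0178 for Ndufv2 and of 0.00297 to 0.0475 for Ndufs3.

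Ndufv1 was the exception in direction. This catalytic subunit had values of 307, 380 and 457 (lowest, median, highest) in control mice, 369, 395 and 477 in DINP 1.5, 248, 315 and 384 in DINP 15 and 304, 414 and 494 in DINP 150. In DINP 15, 12 of 13 mice lay below the control median and 6 below the lowest control mouse. The log2 fold change was -0.27 ± 0.07 (adjusted p = 0.00369), and -0.30 (adjusted p = 0.00843) without the 4 mice, with alternatives from 7.31e-05 to 0.0412.

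The accessory genes with the largest rises depended on the 4 mice. Ndufs5 ran from 37.1 to 72.7 (median 53.6) in control mice and from 51.9 to 239 (median 74.5) in DINP 15, where the 4 mice held 138 to 239 and the other 9 a median of 58.0. Its log2 fold change was 0.84 ± 0.18 (adjusted p = 0.000671), and 0.46 (adjusted p = 0.0639) without them. Ndufa5 behaved alike, from 16.1 to 55.1 in control mice and 21.4 to 130 in DINP 15, with a log2 fold change of 0.79 ± 0.19 (adjusted p = 0.00329) that became 0.41 (adjusted p = 0.160). For Ndufa1, needed for membrane arm assembly, it was 0.58 ± 0.14 (adjusted p = 0.00365) and 0.28 (adjusted p = 0.204). Ndufb1, of the membrane arm, was 0.31 ± 0.09 (adjusted p = 0.0146) and 0.31 (adjusted p = 0.0108), the same size either way.

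In complex II 1 of 4 genes rose. Sdhd, a membrane anchor, ran from 5.86 to 17.2 (median 10.2) in control mice and from 8.14 to 33.2 (median 14.3) in DINP 15. The 4 mice held the 4 highest values, 22.2 to 33.2, and the log2 fold change of 0.61 ± 0.16 (adjusted p = 0.00784) became 0.27 (adjusted p = 0.288) without them. Sdha, Sdhb and Sdhc stood at 0.012, 0.059 and 0.058 and were not called.

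In complex III 3 of 9 nuclear genes rose and all 9 had positive values, with a median of 0.12, but the median was -0.019 without the 4 mice. Uqcrc2, a core protein (chr7:120635176-120659524, plus strand), ran tightly at 83.1, 91.1 and 100 (lowest, median, highest) in control mice and at 92.2, 105 and 152 in DINP 15. Here 10 of 13 mice lay above the highest control mouse, 8 of them among the other 9 mice. Its log2 fold change was 0.28 ± 0.05 (adjusted p = 0.000103), and 0.27 (adjusted p = 0.000204) without the 4 mice. Uqcrb rose by 0.61 ± 0.13 (adjusted p = 0.00121, and 0.33 with adjusted p = 0.0851 without them) and Uqcrfs1, the Rieske iron-sulphur protein, by 0.50 ± 0.13 (adjusted p = 0.00590, and 0.24 with adjusted p = 0.232). Cyc1, cytochrome c1, and Uqcrc1 stood at 0.040 and 0.043 and were not called.

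In complex IV 4 of 16 nuclear genes tested rose. Cox7b, a small membrane subunit (chrX:106015700-106022450, plus strand), ran at 255, 353 and 472 (lowest, median, highest) in control mice, 269, 328 and 367 in DINP 1.5, 350, 472 and 723 in DINP 15 and 293, 372 and 490 in DINP 150. In DINP 15, 12 of 13 mice lay above the control median and 7 above the highest control mouse, 4 of these among the other 9. The log2 fold change was 0.50 ± 0.08 (adjusted p = 2.82e-05) with all mice and 0.48 (adjusted p = 0.000177) without the 4. Cox6c (0.32), Cox7c (0.46) and Ndufa4 (0.44) passed only with them: their adjusted p were 0.00351, 0.0257 and 0.0171 with all mice and 0.0957, 0.633 and 0.223 without. The summed scaled TPM of all complex IV rows was 29139 ± 5647 (SD, n = 14) in control mice, 38004 ± 16209 (n = 13) in DINP 15 and 29512 ± 7966 in the other 9 mice of that group. Cox7c has a listed near copy, Cox7c-ps1, with a control median of 379, so reads may be split between them.

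In complex V 9 of 18 nuclear genes rose and none fell by limma, with a median of 0.26 (0.095 without the 4 mice). These were 3 of 5 F1 and central stalk genes (Atp5f1a, Atp5f1b and Atp5f1e), 5 of 12 membrane and peripheral stalk genes, and Atp5if1, the inhibitor of ATP hydrolysis (0.41 ± 0.12, adjusted p = 0.0198). Atp5f1a, Atp5f1b, Atp5f1e, Atp5if1 and Atp5mc1 were called only with all mice. Atp5pf, coupling factor 6 of the peripheral stalk (chr16:84827866-84835625, minus strand), had the largest rise of any subunit gene at this dose. It ran at 119, 159 and 304 in control mice, 94.1, 129 and 165 in DINP 1.5, 158, 288 and 747 in DINP 15 and 116, 156 and 285 in DINP 150. Within the DINP 15 group the 4 mice held 392 to 747 and the other 9 held 158 to 556, so the groups overlapped. The log2 fold change was 0.94 ± 0.18 (adjusted p = 0.000169), and 0.58 (adjusted p = 0.0177) without the 4 mice. The alternatives gave an adjusted p of 0.000109 to 0.0412. Also called with and without the 4 mice were Atp5pb (0.48 and 0.31), Atp5pd (0.34 and 0.34) and Atp5mj (0.39 and 0.30).

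In all, 10 subunit genes rose both with all mice and without the 4: Ndufb1, Ndufs3, Ndufs4 and Ndufv2 of complex I, Uqcrc2 of complex III, Cox7b of complex IV, and Atp5mj, Atp5pb, Atp5pd and Atp5pf of complex V. All 10 also rose with the length index as a covariate, a fit in which 20 subunit genes rose and 6 fell. Another 28 rose only with all mice. In 23 of 85 nuclear genes (27.1%) all 4 values lay above the highest control mouse, beside 4.72% of all 11417 rows tested with a unique symbol and 10.5% of 1938 other protein-coding genes under 1000 bases. These mice were chosen by the shift of short transcripts, so this is a description. Scaling every mouse to the same total gave 29 subunit genes up and 3 down, with the split of all rows moving from 865 up and 756 down to 563 up and 944 down. Leaving out the 2 ribosomal RNAs first gave 31 up and 5 down among 99 subunit genes, and 532 up and 1042 down among all rows. Leaving out all mtDNA-encoded rows first gave 23 up and 4 down among 86 subunit genes, and 465 up and 1226 down among all rows.

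**Figure D2:**
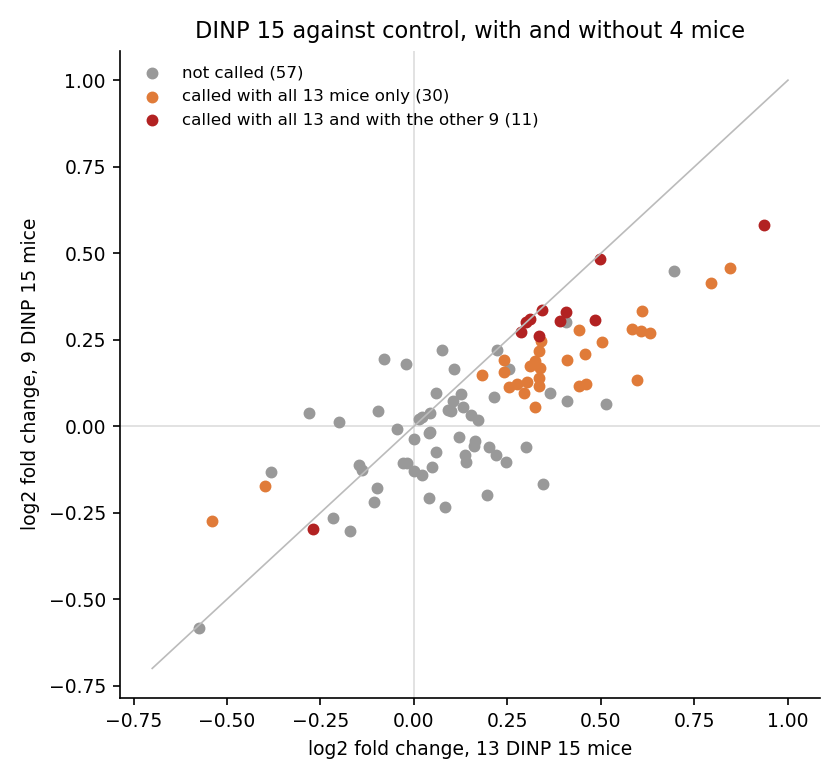
Log2 fold change in DINP 15 against control for 98 subunit genes with all 13 mice (horizontal) and with the 9 mice that remain without the 4 that stand apart (vertical). The grey diagonal marks equal values. Dark red points passed both times (11 genes), orange points only with all 13 mice (30 genes), and 28 of the orange points, the genes that rose, lie below the diagonal.

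The mtDNA-encoded genes did not share one direction in DINP 15, where 2 rose (ND3 and COX2) and 2 fell (ND2 and ND4L). None of the 4 passed without the mice that stand apart. ND2 ran at 50143, 72138 and 104841 (lowest, median, highest) in control mice and at 24933, 52580 and 83618 in DINP 15, where those mice held the 4 lowest values, up to 38649. Its log2 fold change was -0.54 ± 0.13 (adjusted p = 0.00243), and -0.27 (adjusted p = 0.136) without them. COX2 ran at 2701, 4874 and 9183 in control mice and reached 18553 in the same mice, whose lowest value was 9580, and its log2 fold change of 0.60 ± 0.20 (adjusted p = 0.0392) became 0.13 (adjusted p = 0.712). For ND3 the values were 0.63 (adjusted p = 0.0219) and 0.27 (adjusted p = 0.439), and for ND4L -0.40 (adjusted p = 0.00359) and -0.17 (adjusted p = 0.209). The ribosomal RNAs mt-Rnr1 and mt-Rnr2 stood at -0.11 and -0.059 and were not called.

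**Figure D3:**
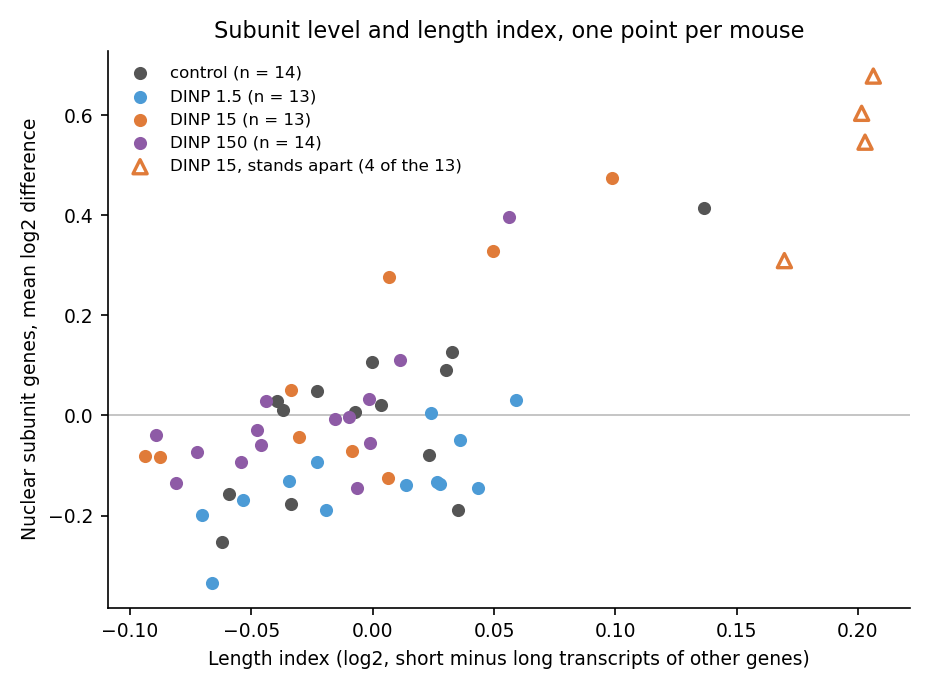
Mean log2 difference of 85 nuclear subunit genes from the control mean (vertical) against the length index of other genes (horizontal), 1 point per mouse and 1 colour per group. Open triangles are the 4 mice of the DINP 15 group with indices of 0.170 to 0.206, and control mouse 1 lies at 0.137 and 0.41.

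Across mice, nuclear subunit genes of complexes I (38 genes), III (9) and V (18) varied together more than those of complexes II (4) and IV (16). The complex IV set holds genes near the floor, such as Cox6a2 and Ndufa4l2, and complex II gives few pairs. The part of low values in this difference was not tested. No pair value was computed over all rows for comparison. The median correlation of a pair, computed on deviations from group means over 54 mice, was 0.61 in complex V, 0.50 in complex III, 0.49 in complex I, 0.22 in complex IV and 0.16 in complex II, and 0.30 among mtDNA-encoded genes. Between a nuclear and an mtDNA-encoded gene it was 0.11. Without the 4 mice the values were 0.61, 0.39, 0.44, 0.24, 0.16, 0.30 and 0.14. The median correlation of a nuclear gene with the length index was 0.65 (0.56 over 50 mice), against -0.013 for all rows tested. All rows mix the short and long genes that the index sets against each other, and no value was computed for other short genes alone. These points share libraries and scaling, and the values are descriptions. Within length classes the median log2 fold changes of nuclear subunit genes in DINP 15 lay above those of other protein-coding genes, 0.31 against 0.012 under 500 bases, 0.20 against 0.036 from 500 to 1000 bases and 0.23 against 0.012 from 1000 to 2000 bases. Without the 4 mice these were 0.11 against 0.015, 0.071 against -0.0089 and 0.11 against -0.012.

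In DINP 150, 3 subunit genes passed, 1 each in complexes I, II and IV. Sdha, the catalytic subunit of succinate dehydrogenase (chr13:74322254-74350280, minus strand), ran at 164, 182 and 203 (lowest, median, highest) in control mice, 168, 196 and 222 in DINP 1.5, 165, 178 and 201 in DINP 15 and 185, 214 and 247 in DINP 150. At the highest dose all 14 mice lay above the control median and 12 above the highest control mouse. The log2 fold change was 0.25 ± 0.05 (adjusted p = 0.000433). COX1 ran at 1858, 2738 and 3192 in control mice, 2339, 2605 and 2976 in DINP 1.5, 1895, 2746 and 3091 in DINP 15 and 2736, 3275 and 3658 in DINP 150. Again 12 of 14 mice lay above the highest control mouse, and the log2 fold change was 0.29 ± 0.07 (adjusted p = 0.00974). The other was Ndufs4, whose values are given with complex I. Scaling to the same total ended the calls of Sdha (adjusted p = 0.0653) and Ndufs4 (adjusted p = 0.142), and quantile normalization that of COX1 (adjusted p = 0.565). Leaving out the ribosomal RNAs before scaling also ended the call of Ndufs4 (adjusted p = 0.0939). Scaling to the same total turned the split of all rows from 170 up and 78 down to 82 up and 266 down, and of subunit genes to 1 up and 3 down. It shifted the median of all rows by less than 0.1.

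Ndufa4 stood below control at the highest dose without passing the limma test used here. With DESeq2, the authors named this gene among the top genes lowered at that dose. Ndufa4 ran at 440, 647 and 1242 in control mice, 473, 588 and 853 in DINP 1.5, 532, 847 and 1533 in DINP 15 and 417, 452 and 665 in DINP 150. In DINP 150, 13 of 14 mice lay below the control median and 6 below the lowest control mouse. The log2 fold change was -0.42 ± 0.13 (adjusted p = 0.0693, not called), with alternatives from 0.00961 to 0.117. Against DINP 15 it was -0.86 ± 0.13 (adjusted p = 3.61e-06), and it passed without the 4 mice too (adjusted p = 0.000346).

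The other mtDNA-encoded genes did not pass in DINP 150, although 10 of 13 had positive values, with a median of 0.14. ATP8 stood at 0.40 ± 0.13 (adjusted p = 0.103), with 14 mice between 13794 and 22726 against a control range of 8905 to 17837, and ND5 at 0.31 ± 0.11 (adjusted p = 0.132). Nuclear genes had medians of 0.0074 in complex I, -0.0055 in complex II, 0.086 in complex III, -0.025 in complex IV and 0.013 in complex V.

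**Figure D4:**
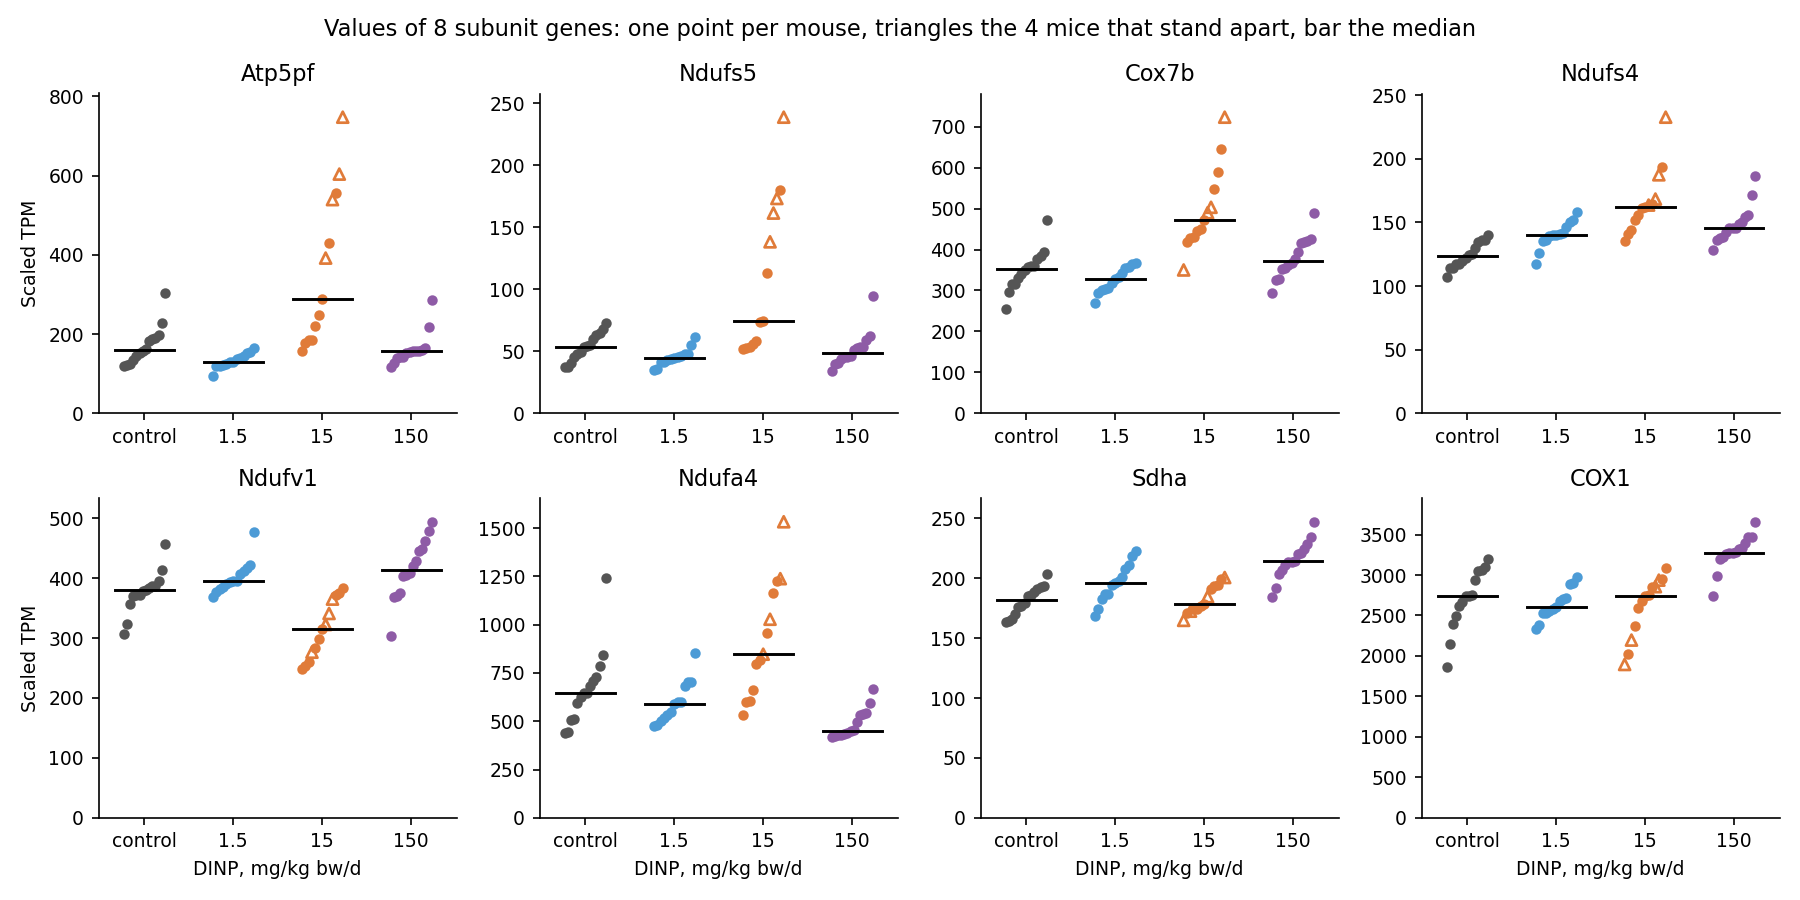
Scaled TPM of 8 subunit genes in each mouse by group, with axes that start at 0. Each point is 1 mouse, open triangles are the 4 mice that stand apart, and black bars are medians, with Sdha and COX1 highest in DINP 150 (medians 214 and 3275), Ndufa4 lowest there (median 452) and Ndufv1 lowest in DINP 15 (median 315).

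In DINP 1.5 most subunit genes lay slightly below control, 71 of 98, while 4 passed. ND4 rose, from 12779 to 22054 in control mice to 18804 to 29248, with 10 of 13 mice above the highest control mouse and a log2 fold change of 0.37 ± 0.09 (adjusted p = 0.0326). Atp5mc3 fell, from 2328 to 4944 (median 3367) to 2011 to 3159 (median 2447), with all 13 mice below the control median (-0.41 ± 0.10, adjusted p = 0.0355). Atp5mg of the membrane part fell by 0.46 ± 0.12 (adjusted p = 0.0372) and Ndufb2 of complex I by 0.53 ± 0.14 (adjusted p = 0.0455) on the log2 scale. Leaving out each mouse in turn gave 0 to 6 calls in this comparison. By complex, the nuclear medians were -0.14, -0.034, -0.15, -0.12 and -0.062 for I to V. The accessory complex I genes had a median of -0.16 and the core genes one of 0.027.

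Between doses, the counts also depended on the 4 mice. In DINP 15 against DINP 1.5, 58 subunit genes were higher and 5 lower (10.9% and 10.5% of all rows were), and without the 4 mice 27 were higher and 3 lower (4.56% and 4.37% of all rows). With all mice, Atp5pf led with 1.27 ± 0.18 (adjusted p = 1.52e-06), then Atp5mk (1.11 ± 0.20, adjusted p = 8.79e-05) and ND3 (1.10 ± 0.20, adjusted p = 6.67e-05), and Ndufv1, ND4, Ndufc1, Ndufs1 and Ndufa10 were lower. The DINP 150 group against the DINP 15 group had 8 higher and 36 lower (9.85% and 10.1% of all rows were), and without the 4 mice 7 higher and 9 lower (5.05% and 4.88% of all rows). Higher in DINP 150 were ND2, ATP8, ND4L, ND5, COX1, Ndufv1, Ndufc1 and Sdha. Against DINP 1.5 the highest dose had 7 higher, ATP8, Cox7c, ND5, Atp5mc3, ND4L, COX1 and Ndufb5, and none lower by limma (2.55% and 2.06% of all rows were). Leaving out the 4 mice from the shared fit gave 15 higher and none lower by limma here (3.41% and 2.91% of all rows). With the length index as a covariate, 42 were higher here and none lower by limma, beside 583 and 486 of all 11431 rows. Between DINP 150 and DINP 15 this covariate gave 17 higher and 9 lower, beside 679 and 608 of all rows. The median log2 fold change of the subunit genes between these 2 doses went from -0.18 to 0.013. ATP8 differed most between DINP 150 and DINP 1.5, with 9428 to 13964 in DINP 1.5 and a log2 fold change of 0.75 ± 0.13 (adjusted p = 0.000260), and only 1 mouse at the lower dose exceeded the lowest value at the higher dose. Scaling to the same total turned this split of all rows from 292 up and 235 down to 140 up and 661 down, and of subunit genes to 3 up and 4 down.

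Genes that serve the complexes were followed from fixed lists, whose counts in DINP 15 stand beside 7.57% up and 6.61% down over all rows, or 3.59% and 2.81% without the 4 mice. Of 55 assembly factors tested in DINP 15, 12 rose and 2 fell, with a median of 0.11, and 5 rose and 2 fell without the 4 mice. Ndufaf2, a complex I assembly factor, rose from a mean of 23.9 to 43.9 (0.79, and 0.71 without them), the copper chaperone Cox17 from 189 to 344 (0.78 and 0.51), Tmem126a from 53.9 to 82.0 (0.57 and 0.42) and Cox20 from 170 to 242 (0.50 and 0.42), all past the test both ways. In DINP 150 Pet100, a complex IV assembly factor, fell by 0.36 on the log2 scale (adjusted p = 0.0296) and no other passed, and in DINP 1.5 Uqcc1 alone rose (0.29, adjusted p = 0.0426). Each is 1.82% of the 55, beside 0.682% of all rows down in DINP 150 and 0.674% up in DINP 1.5.

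Among 20 electron carriers and other electron inputs 5 rose (25.0%) and 2 fell (10.0%) in DINP 15, and without the 4 mice 1 rose (5.00%), near the 3.59% over all rows. That gene was Etfa, of the electron transfer flavoprotein (0.60, and 0.36 with adjusted p = 0.0153 without them), whose partner Etfb fell by 0.31 with all mice on the log2 scale. Cycs, cytochrome c, rose by 0.53 (adjusted p = 0.00107) with all mice and stood at 0.34 (adjusted p = 0.0658) without the 4. Of 18 tricarboxylic acid cycle and pyruvate dehydrogenase genes 8 rose and 1 fell, and 5 and 1 without the 4 mice, with Idh3b at 0.47 and 0.44, Fh1 at 0.28 and 0.35, and Idh2 at -0.29 and -0.30. No gene of these 2 lists passed in DINP 150, beside 1.49% up and 0.682% down of all rows.

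Of 30 regulators of mitochondrial biogenesis and mtDNA expression tested in DINP 15, 3 rose and 3 fell (10.0% each), and 2 rose without the 4 mice (6.67%), near the shares over all rows. Ssbp1, the mtDNA single-strand binding protein, rose by 0.82 (0.62 without them) and Mterf3 by 0.57 (0.54), while Nrf1 fell by 0.27 and Tfb1m by 0.53 with all mice. The coactivator Ppargc1a stood at 0.15 and was not called. In DINP 150, 1 gene rose, Ppara, a nuclear receptor of fatty acid oxidation (mean 130 to 194, log2 fold change 0.58, adjusted p = 0.00187). That is 3.33% of the list, beside 1.49% of all rows up.

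Ribosomal protein genes, which also have short transcripts, gave a comparison in DINP 15. Of 87 cytosolic ones 38 rose and 1 fell with a median of 0.33, and without the 4 mice 14 rose and none fell by limma, with a median of 0.14. Of 80 mitochondrial ones 16 rose and 3 fell, with medians of 0.12 and 0.041. The mean log2 difference of the cytosolic genes was 0.71, 0.51, 0.58 and 0.60 in mice 5 to 8 of that group. No test of the difference between these lists and the subunit genes was made, and the part of transcript length and of these mice in the rise of nuclear subunit genes in DINP 15 was not tested.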

How the data were processed

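Liver RNA of 54 mice was made into QuantSeq 3′ libraries. The submitters' processing notes name STAR, RSEM, Salmon and GRCm38, and the authors ran them through nf-core/rnaseq. The deposited signal values behaved as TPM that the authors rounded and then divided by a size factor per mouse, since each mouse's values were whole multiples of 1 step (within 6.66e-05). They are not read counts, so the DESeq2 test of the authors was replaced by limma 3.58.1 (R 4.3.3) with an intensity trend on log2(value + 1). The 4 groups entered 1 fit with no covariate, over the 11431 of 20162 rows with a mean of at least 1, and Benjamini-Hochberg adjustment covered all of these rows. A gene was called at an adjusted p under 0.05, with a log2 fold change beyond 0.5 as a second rule. Fold changes on this scale understate those of low genes. Errors are standard errors unless named SD. The fit was tested on simulated data with independent genes and the control spread in all groups, which does not cover mice that stand apart.

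Samples were grouped by dose label, and each library is 1 mouse. The members and lists (assembly factors, electron carriers, tricarboxylic acid cycle, regulators, ribosomal proteins, hepatocyte and other cell type markers) were chosen with earlier results of these data known. Named genes were the mtDNA-encoded subunits, the core of complex I, complex II, Cyc1, Uqcrc1, Uqcrfs1, the isoform groups, the 3 highest members of each complex, Ndufa4, COX1, and up to 3 called members per complex and direction in each comparison. Other named genes were chosen after their values were seen. An older symbol linked 32 symbols to GENCODE M21 (GRCm38), which gave positions and transcript lengths for 111 of 117 rows. Promoters came from RefSeq on GRCm38.p6. Alternatives changed the pseudocount, filter, scaling, weights, groups fitted, test, pairing and mice. The length index, both alternatives built on it, and leaving out all mtDNA-encoded rows (the planned version named only rows that begin with mt-) were chosen after seeing the data. Results for 1 member are not reported here.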

Additional observations from a re-analysis of the deposited data

How the results depend on the processing

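No called value of a named gene changed sign under any alternative run. Against control at 1.5 mg/kg bw/d, where 4 were called, a log2 fold change beyond 0.5 left 1, no filter on the mean 0 by limma, only the 2 groups 13, array quality weights 11, the 4 mice left out 11 and the length index as a covariate 14. Leaving out each mouse in turn gave 0 to 6, and 14 of the 27 mice moved the count: without control mice 1, 3, 5, 7 and 12 it was 1, without control mouse 4 it was 2 and without control mouse 10 it was 0, and without DINP 1.5 mice 5 and 8 it was 0, without 9 and 12 it was 1, and without 10, 11 and 13 it was 2. Against control at 15 mg/kg bw/d (41 called) the values were 10 beyond 0.5, 27 with all mtDNA-encoded rows left out and rescaled, 23 with only the 2 groups, 25 with weights, 10 with the Wilcoxon rank-sum test, 11 without the 4 mice and 26 with the covariate, and 31 to 46 without single mice. At 150 mg/kg bw/d (3 called) they were 0 beyond 0.5 by limma, 5 with quantile normalization, 5 with the rows that begin with mt- left out and rescaled, 7 with only the 2 groups, 6 with weights, 6 with the Wilcoxon test, 8 without the 4 mice and 7 with the covariate, and 3 to 4 without single mice.

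Between 15 and 1.5 mg/kg bw/d (63 called) there were 29 beyond 0.5, 37 with the Wilcoxon test and 30 without the 4 mice, and 52 to 67 without single mice. Between 150 and 1.5 mg/kg bw/d (7 called) there were 2 beyond 0.5, 3 with quantile normalization, 3 with all mtDNA-encoded rows left out, 24 with only the 2 groups, 14 with weights, 21 with the Wilcoxon test, 15 without the 4 mice and 42 with the covariate, and 5 to 8 without single mice. Between 150 and 15 mg/kg bw/d (44 called) there were 18 beyond 0.5, 21 with the Wilcoxon test, 16 without the 4 mice and 26 with the covariate, and 36 to 49 without single mice. The 26 with the covariate were 17 higher and 9 lower at 150 mg/kg bw/d, while the 44 were 8 higher and 36 lower. Pseudocounts of 0.1 and 5, a minimum mean of 5, scaling to the same total and robust variance estimates kept each count within 1.5 times. Directions were not kept by scaling to the same total. At 150 mg/kg bw/d against control, 3 up and none down by limma became 1 up and 3 down. Between 150 and 1.5 mg/kg bw/d, 7 up and none down by limma became 3 up and 4 down. Filters were reapplied after each scaling. For other than the stricter rule, the cause was not tested. Complex sums fell without mtDNA-encoded rows by construction.

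Replicate numbers did not pair mice: over 79 pairs of equal number in different groups the deviations had a mean correlation of -0.0025 (from -0.36 to 0.24). With a replicate block the counts were 0, 35 and 3 against control in dose order, and 57, 6 and 39 between doses. Read counts were not used here, so depth limits could not be given, and low genes such as Sdhd or Cox6a2 rest on few steps of each mouse's scale.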
